A study of Mus musculus with 4 samples.

Results

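The genes described here mark the epithelial or the mesenchymal state of a cell, and were measured in YTHDF1-bound and total RNA of Hepa 1-6 cells. They are 10 of the 53465 gene IDs in the count table and were taken by a fixed list of IDs. They are grouped here as 4 epithelial genes (Krt8, Krt18, Epcam, Cdh1), 2 mesenchymal genes (Vim, Cdh2) and 4 repressors of epithelial genes (Snai1, Snai2, Zeb1, Zeb2). Hepa 1-6 is a mouse hepatocellular carcinoma line. RNA immunoprecipitation (RIP) with an antibody to YTHDF1 was followed by sequencing, and RNA of the lysate before precipitation was sequenced as input. There were 4 groups of 1 library each: RIP and input of cells with a guide for Usp5 (sgUsp5, genotype labelled Usp5 Knockdown), and RIP and input of cells with a control guide (sgcontrol, labelled WT). Both are Hepa 1-6 cells and are called lines below, and whether either is a single clone is not given in the sources used here. RIP and input of a line are 2 fractions of 1 lysate. A control precipitate was not used here.

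Epithelial cells hold to one another through E-cadherin (Cdh1) and EpCAM, and simple epithelia such as liver cells fill their cytoplasm with filaments of keratin 8 and keratin 18, which pair with each other. In the epithelial to mesenchymal transition, a change of state used in development and by invading tumour cells, the zinc finger proteins Snail (Snai1), Slug (Snai2), Zeb1 and Zeb2 bind E-box motifs in promoters of epithelial genes and repress them, while vimentin (Vim) and N-cadherin (Cdh2) increase. YTHDF1 reads the methyl mark of adenosine on cytoplasmic mRNA and favours translation, and the transcript of Snail has been reported as one of its targets in human cancer cells. USP5 is a deubiquitinase, and by its title the study concerns its effect on YTHDF1 stability.

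The E-box that links the repressors to their targets is CACCTG, or CAGGTG when read on the other strand. It was searched in the 250 bases before the transcription start of members that the RefSeq promoter table (GRCm38.p6) holds. Cdh2 and Zeb1 were left out by their chromosome, and their windows are not reported here. The members covered were Krt8, Krt18, Epcam, Vim, Snai1 and Zeb2 (6 of 10). These 6 genes have 9 windows, of which 4 had a match, each of another gene. Of all 32851 windows of that length, with no chromosome left out, 17.2% had one. The windows of 5 members are printed 5′ to 3′ on the gene's strand because they show which of the measured genes carry the letters that the measured repressors bind. Capitals mark the motif.
Krt8 (chr15:102004343-102004592, - strand): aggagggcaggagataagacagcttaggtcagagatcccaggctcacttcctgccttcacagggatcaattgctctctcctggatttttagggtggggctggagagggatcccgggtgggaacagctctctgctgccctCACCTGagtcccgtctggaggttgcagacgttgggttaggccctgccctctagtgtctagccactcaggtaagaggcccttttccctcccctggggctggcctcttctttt
Krt18 (chr15:102027966-102028215, + strand): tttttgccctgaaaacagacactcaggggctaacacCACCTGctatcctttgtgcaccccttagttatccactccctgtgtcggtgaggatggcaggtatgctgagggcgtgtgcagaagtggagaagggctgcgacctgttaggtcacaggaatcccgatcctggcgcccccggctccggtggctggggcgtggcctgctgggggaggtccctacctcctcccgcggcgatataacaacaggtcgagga
Epcam (chr17:87635729-87635978, + strand): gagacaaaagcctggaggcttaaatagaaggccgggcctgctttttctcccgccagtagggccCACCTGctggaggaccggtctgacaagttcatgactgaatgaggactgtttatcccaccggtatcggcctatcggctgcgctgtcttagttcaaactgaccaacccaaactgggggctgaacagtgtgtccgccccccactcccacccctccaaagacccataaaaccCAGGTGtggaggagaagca
Snai1 (chr2:167537945-167538194, + strand): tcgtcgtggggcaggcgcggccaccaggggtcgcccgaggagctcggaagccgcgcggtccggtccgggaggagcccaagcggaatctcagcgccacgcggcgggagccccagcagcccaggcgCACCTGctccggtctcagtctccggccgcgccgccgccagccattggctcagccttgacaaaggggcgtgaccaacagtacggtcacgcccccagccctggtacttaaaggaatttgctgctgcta
Vim (chr2:13574061-13574310, + strand): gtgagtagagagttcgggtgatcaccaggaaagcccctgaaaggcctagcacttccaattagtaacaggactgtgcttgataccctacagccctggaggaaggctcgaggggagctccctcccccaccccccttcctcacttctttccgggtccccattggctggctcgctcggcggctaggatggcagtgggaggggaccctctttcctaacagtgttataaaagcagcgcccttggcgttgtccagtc
Epcam had 2 matches, which began 187 and 19 bases before the start. Krt8 had 1 match, 111 bases before the start, Krt18 had 1 at 214 bases and Snai1 had 1 at 126 bases. The windows of Vim and the 4 windows of Zeb2 held none of these letters. A match is a description of the sequence and not evidence of binding. Krt8 and Krt18 lie 23873 bases apart on chromosome 15, and 2 other annotated genes overlap that gap.

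The libraries held between 29898171 and 33941019 counts, and 12920 genes were compared, those whose mean over the 4 libraries reached 1 CPM (reads scaled to a common library size, here with TMM factors). Because transcript lengths were not used, levels are compared between libraries and not between genes. Ratios are log2 values with 2 intervals at 95%. The first covers counting error alone. The second, called widened, adds the scatter between the sgUsp5 and sgcontrol libraries seen in genes of like abundance, which was 17 to 106.1 times the binomial variance in the RIP libraries and 60.1 to 182.2 times in the inputs, by class of abundance, and includes any true difference between the lines. A call needed a ratio of 2-fold or more and a first interval that excluded no difference. With 1 library per group no p-value is given within a line or a fraction. Reads were amplified without molecular identifiers, so counts are not independent molecules. The count table pairs no names with IDs, so Usp5, Ythdf1 and the defining markers of liver and other cell types were not analysed here, and the label of the knockdown was not checked.

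Of the 10 genes, 8 were expressed by the rule of a mean of at least 1 CPM. These were Krt8, Krt18, Epcam, Vim, Cdh2, Snai1, Zeb1 and Zeb2. Transcripts of epithelial keratins, of the mesenchymal filament and cadherin genes and of 3 of the 4 repressors were thus counted in the same cultures. In bulk RNA, fewer cells with a transcript and less of it per cell cannot be told apart. Snai2 (ENSMUSG00000022676, chr16:14705852-14709395 in GRCm38.p6), which encodes Slug, had 0 reads in each of the 4 libraries, which allows up to 3 reads (the one-sided 95% limit, for counting error only), or between 0.0841 and 0.105 CPM. Cdh1 had 0 reads in both inputs and a mean of 0.237 CPM over the libraries. Of the 2 cadherins, E-cadherin was thus all but unread, while Cdh2 was read at 50.7 CPM or more in every library.

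**Figure D1:**
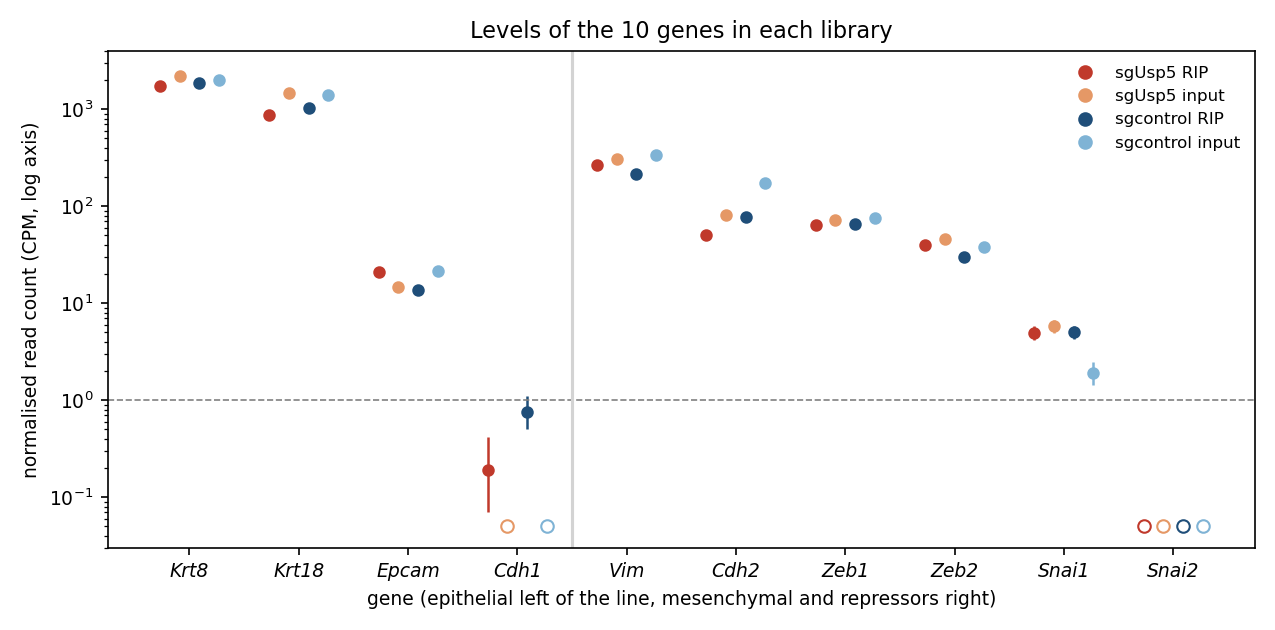
Normalised read count (CPM, log axis) of the 10 genes in each library, with 95% Poisson intervals that cover counting error. Open circles at the bottom stand for 0 reads and carry no interval, and the dashed line marks 1 CPM, the minimum mean for a gene to be compared. Cdh1 and Snai2 lie below the line in every library, and the lowest Snai1 value, 1.89 CPM, is that of the sgcontrol input.

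Krt8 (ENSMUSG00000049382, chr15:101996711-102004342), which encodes the type II keratin of simple epithelia, had 1725 CPM in sgUsp5 RIP and 2207 CPM in sgUsp5 input, and 1871 CPM in sgcontrol RIP and 1987 CPM in sgcontrol input. Its type I partner Krt18 (ENSMUSG00000023043, chr15:102028216-102032026) had 862.2 CPM in sgUsp5 RIP and 1455 CPM in sgUsp5 input, and 1039 CPM in sgcontrol RIP and 1393 CPM in sgcontrol input. For both keratins the RIP values of both lines lay below both input values. A pseudogene of Krt8 is annotated elsewhere in the genome, and reads that fit both are uncertain.

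The log2 ratio of RIP over input for Krt18 was -0.75 in sgUsp5 cells (counting interval -0.78 to -0.73, widened -1.01 to -0.50) and -0.42 in sgcontrol cells (counting -0.44 to -0.40, widened -0.67 to -0.17). For Krt8 it was -0.36 (widened -0.55 to -0.16) in sgUsp5 cells and -0.09 (widened -0.28 to 0.11) in sgcontrol cells. With library totals in place of TMM factors the Krt8 ratio in sgcontrol cells turned to 0.10, since that scaling moves the median of all genes from 0.03 to 0.21 in sgcontrol cells and from 0.02 to 0.15 in sgUsp5 cells. The number of Krt18 reads per Krt8 read does not depend on scaling. It was 0.50 in sgUsp5 RIP against 0.659 in sgUsp5 input, 24.2% lower, and 0.555 in sgcontrol RIP against 0.701 in sgcontrol input, 20.8% lower. The difference was in the same direction in both lines and beyond counting error (log2 -0.40, interval -0.43 to -0.37, in sgUsp5 cells and -0.34, interval -0.36 to -0.31, in sgcontrol cells).

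Over both lines, RIP was tested against input with edgeR's quasi-likelihood test on all 12920 genes, with the 2 lines as the replicates of each fraction, which called 17.3% of genes at a Benjamini-Hochberg adjusted p under 0.05. Krt18 was the 1 of 8 expressed members that passed, with a log2 ratio of -0.58 and an edgeR adjusted p of 0.0233, lower in 2 of 2 lines. Whether the lines are independent cultures is not stated, so these p-values measure the spread between libraries. The call was lost without the sgUsp5 RIP library (log2 ratio -0.45, edgeR adjusted p = 0.171) and with library totals (log2 ratio -0.43, edgeR adjusted p = 0.0542). Over the alternatives of this test the adjusted p of Krt18 ran from 1.03e-05 to 0.171. Krt8 had a log2 ratio of -0.22 and an edgeR adjusted p of 0.210.

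Between the guides the keratins differed little. The log2 ratio of sgUsp5 over sgcontrol for Krt8 was -0.12 in RIP (widened interval -0.29 to 0.05) and 0.15 in input (-0.07 to 0.37). For Krt18 it was -0.27 in RIP (widened interval -0.51 to -0.03) and 0.06 in input (-0.21 to 0.33). Krt8 and Krt18 thus had opposite signs in the fractions, and 3 of these 4 widened intervals included no difference.

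Epcam (ENSMUSG00000045394, chr17:87635979-87651127), an adhesion molecule of epithelia and of liver progenitor and tumour cells, had 658 reads (20.8 CPM) in sgUsp5 RIP and 450 reads (14.6 CPM) in sgUsp5 input, and 489 reads (13.7 CPM) in sgcontrol RIP and 609 reads (21.3 CPM) in sgcontrol input. The higher value was in the RIP of sgUsp5 cells but in the input of sgcontrol cells. RIP over input was 0.51 (counting interval 0.33 to 0.68, widened -0.65 to 1.87) in sgUsp5 cells and -0.64 (counting -0.81 to -0.46, widened -1.73 to 0.57) in sgcontrol cells. The ratio of these enrichments was 2.21-fold, a log2 value of 1.14 with a counting interval of 0.90 to 1.39 and a widened interval of -0.40 to 2.69. Epcam was called here by the counting interval, but the difference was within the scatter between libraries at its depth.

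Cdh1 (ENSMUSG00000000303, chr8:106603350-106670247), which encodes E-cadherin, the adhesion protein of epithelial junctions, had 6 reads in sgUsp5 RIP and 0 in sgUsp5 input, and 27 reads in sgcontrol RIP and 0 in sgcontrol input. The counting interval of the sgUsp5 RIP, 0.0695 to 0.412 CPM, included the 0.0975 CPM that 0 reads allow in its input, so a difference was not detectable there at this depth. In sgcontrol cells the RIP interval, 0.499 to 1.10 CPM, lay above the 0.105 CPM allowed in the input, and taken at its 27 reads the RIP was at least 7.20-fold higher against 3 reads per library. Cdh1 was not tested, since its mean lay below 1 CPM. Of the 53465 gene IDs, 2151 in sgUsp5 cells and 2246 in sgcontrol cells had at least 6 reads in the RIP with 0 in the input. The reverse was seen for 762 and 726 gene IDs. The cut of 6 reads is the count of Cdh1 in sgUsp5 RIP. How many gene IDs reached its 27 reads in sgcontrol RIP with 0 in the input was not counted. In RIP, Cdh1 was 4.00-fold lower in sgUsp5 than in sgcontrol cells, with a log2 ratio of -2.0 and a counting interval of -3.57 to -0.69. No widened interval was computed below 1 CPM. The 5th percentile of this ratio among genes with a mean log2 CPM under 3 that were compared was -1.90, and Cdh1 lay just below it. Those genes had a mean of at least 1 CPM, against 0.237 CPM for Cdh1. The scatter at its depth was thus not measured, and the fold is not shown to exceed the scatter between libraries.

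Vim (ENSMUSG00000026728, chr2:13574311-13582826), which encodes the intermediate filament of mesenchymal cells, had 8395 reads (264.9 CPM) in sgUsp5 RIP and 9437 reads (306.7 CPM) in sgUsp5 input, and 7590 reads (212.8 CPM) in sgcontrol RIP and 9552 reads (334.7 CPM) in sgcontrol input. Both RIP values lay below both input values. RIP over input was -0.21 (widened interval -0.74 to 0.32) in sgUsp5 cells and -0.65 (widened interval -1.19 to -0.11) in sgcontrol cells. Over both lines the log2 ratio was -0.43 with an edgeR adjusted p of 0.102. DESeq2 called it lower in the RIP (log2 ratio -0.45, adjusted p = 0.0294 without and 0.0375 with the line as a block), and so did edgeR without the sgUsp5 input (log2 ratio -0.49, adjusted p = 0.0294).

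The guides differed little for Vim as well, with log2 ratios of sgUsp5 over sgcontrol of 0.32 in RIP (widened interval -0.16 to 0.80) and -0.13 in input (-0.71 to 0.46). Reads of Vim per read of Krt8, a measure of mesenchymal against epithelial filament transcripts that does not depend on scaling, were 0.154 in sgUsp5 RIP against 0.114 in sgcontrol RIP, and 0.139 in sgUsp5 input against 0.168 in sgcontrol input. This ratio was higher with the Usp5 guide in RIP and lower with it in input.

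Cdh2 (ENSMUSG00000024304) encodes N-cadherin and is grouped here as mesenchymal. Whether its level marks a mesenchymal state in these liver tumour cells was not tested. Cdh2 was the member whose guide ratio was lower in both fractions with both kinds of interval. It had 1606 reads (50.7 CPM) in sgUsp5 RIP against 2785 reads (78.1 CPM) in sgcontrol RIP, and 2521 reads (81.9 CPM) in sgUsp5 input against 4917 reads (172.3 CPM) in sgcontrol input. Both sgUsp5 values were below their sgcontrol counterparts, and the sgcontrol input had the highest value of the 4 libraries. In input, Cdh2 was 2.1-fold lower in sgUsp5 cells, a log2 ratio of -1.07 (counting interval -1.14 to -1.0, widened -1.74 to -0.43). In RIP it was 1.54-fold lower, a log2 ratio of -0.62 (counting interval -0.71 to -0.53, widened -1.15 to -0.11).

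In the abundance class of Cdh2, 4390 genes with a mean log2 CPM of 5 to 8, 2.12% were called between the inputs and 0.0911% between the RIP libraries. In that class 0.661% of genes had a lower ratio than Cdh2 in input and 0.957% in RIP. When both fractions were fitted together with the fraction as a block, the log2 ratio of Cdh2 was -0.85, with an unadjusted p of 0.0013 and an edgeR adjusted p of 0.538 over all genes. It did not pass the threshold, and the adjusted p ran from 0.0805 to 1.00 over the alternatives, DESeq2 giving 0.118. The fractions of a line come from 1 lysate and are not replicates of the guide, so this p measures only whether the 2 fractions agree. Reads of Cdh2 per read of Vim were 0.191 in sgUsp5 RIP against 0.367 in sgcontrol RIP, 47.9% lower, and 0.267 in sgUsp5 input against 0.515 in sgcontrol input, 48.1% lower. Relative to Vim, Cdh2 was thus lower to nearly the same extent in both fractions. Vim itself had guide log2 ratios of opposite sign, 0.32 in RIP and -0.13 in input. Cdh2 by its own CPM was 1.54-fold lower in RIP and 2.1-fold lower in input, so the equal extent holds only per read of Vim.

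Cdh2 was also lower in the RIP than in the input. RIP over input was -0.69 (counting interval -0.78 to -0.60, widened -1.36 to -0.01) in sgUsp5 cells and -1.14 (counting -1.21 to -1.07, widened -1.63 to -0.65) in sgcontrol cells, where it was 2.21-fold lower and was called. The input and RIP of a line share a lysate, and with the line as a replicate block Cdh2 passed edgeR's test (log2 ratio -0.92, adjusted p = 0.00787), whereas without the block it did not (log2 ratio -0.98, adjusted p = 0.114). Without the sgcontrol input the log2 ratio was -0.35 (edgeR adjusted p = 0.266), and without the sgUsp5 input it was -1.42 (edgeR adjusted p = 0.000342), so its size rests on which input is used. With library totals the ratio in sgcontrol cells was under 2-fold. The ratio of enrichments was 0.45 with a widened interval of -0.34 to 1.24.

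Snai1 (ENSMUSG00000042821, chr2:167538195-167542814), which encodes Snail, had 157 reads (4.95 CPM) in sgUsp5 RIP and 178 reads (5.79 CPM) in sgUsp5 input, and 179 reads (5.02 CPM) in sgcontrol RIP and 54 reads (1.89 CPM) in sgcontrol input. The sgcontrol input alone was low, and the other 3 libraries lay between 4.95 and 5.79 CPM. RIP over input was 2.64-fold in sgcontrol cells, a log2 ratio of 1.40 (counting interval 0.96 to 1.87, widened -1.60 to 7.94), but -0.22 in sgUsp5 cells (counting interval -0.54 to 0.09, widened -2.29 to 2.48). The ratio of these enrichments was 3.08-fold lower in sgUsp5 cells, a log2 value of -1.62 (counting interval -2.16 to -1.09, widened -5.43 to 2.18).

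The same 54 reads set the guide comparison of Snai1, which was 3.04-fold higher in sgUsp5 than in sgcontrol input, a log2 ratio of 1.6 (counting interval 1.17 to 2.08, widened -2.38 to 8.45), while in RIP the log2 ratio was -0.02 (widened interval -1.47 to 1.40). Genes at a mean log2 CPM under 3, the class of Snai1, were called in 53.4% of cases for RIP over input in sgcontrol cells, in 57.2% between the inputs and in 60.7% for the ratio of enrichments. In these 3 comparisons more genes of the class were called than not. Between the RIP libraries 26.1% of the class were called. Over both lines the log2 ratio of RIP over input was 0.38 with an edgeR adjusted p of 0.800, and without the sgcontrol input it was -0.21 (edgeR adjusted p = 0.786). Enrichment of Snai1 in the YTHDF1 precipitate was not detectable beyond the scatter between libraries at this depth.

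Zeb1 (ENSMUSG00000024238), a zinc finger and homeodomain repressor of epithelial genes, had 64.3 CPM in sgUsp5 RIP and 71.8 CPM in sgUsp5 input, and 65.5 CPM in sgcontrol RIP and 75.1 CPM in sgcontrol input. Both RIP values lay below both input values, by little. RIP over input was -0.16 in sgUsp5 cells and -0.20 in sgcontrol cells (widened intervals -0.82 to 0.54 and -0.85 to 0.50). Between guides its log2 ratio was -0.03 in RIP and -0.06 in input (widened intervals -0.53 to 0.47 and -0.88 to 0.75), and the second turned sign, at 0.00076, with library totals.

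Its paralog Zeb2 (ENSMUSG00000026872, chr2:44983512-45117442) had 39.3 CPM in sgUsp5 RIP against 30.1 CPM in sgcontrol RIP, and 46.4 CPM in sgUsp5 input against 38.1 CPM in sgcontrol input. Both sgUsp5 values were above their sgcontrol counterparts, with log2 ratios of 0.39 in RIP and 0.28 in input, but the widened intervals (-0.32 to 1.09 and -0.81 to 1.41) included no difference. Fitted over both fractions the log2 ratio was 0.33 with an edgeR adjusted p of 0.942. Reads of Zeb2 per read of Zeb1 were 0.611 in sgUsp5 RIP against 0.459 in sgcontrol RIP, and 0.646 in sgUsp5 input against 0.507 in sgcontrol input. RIP over input was -0.24 in sgUsp5 cells and -0.34 in sgcontrol cells (edgeR adjusted p = 0.480 over both lines). Other annotated genes overlap both, among them the noncoding Zeb2os at Zeb2 and Gm10125 at Zeb1. Without a stated strand setting the reads of overlapping genes cannot be told apart, which also touches the ratio of Zeb2 to Zeb1 reads.

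**Figure D2:**
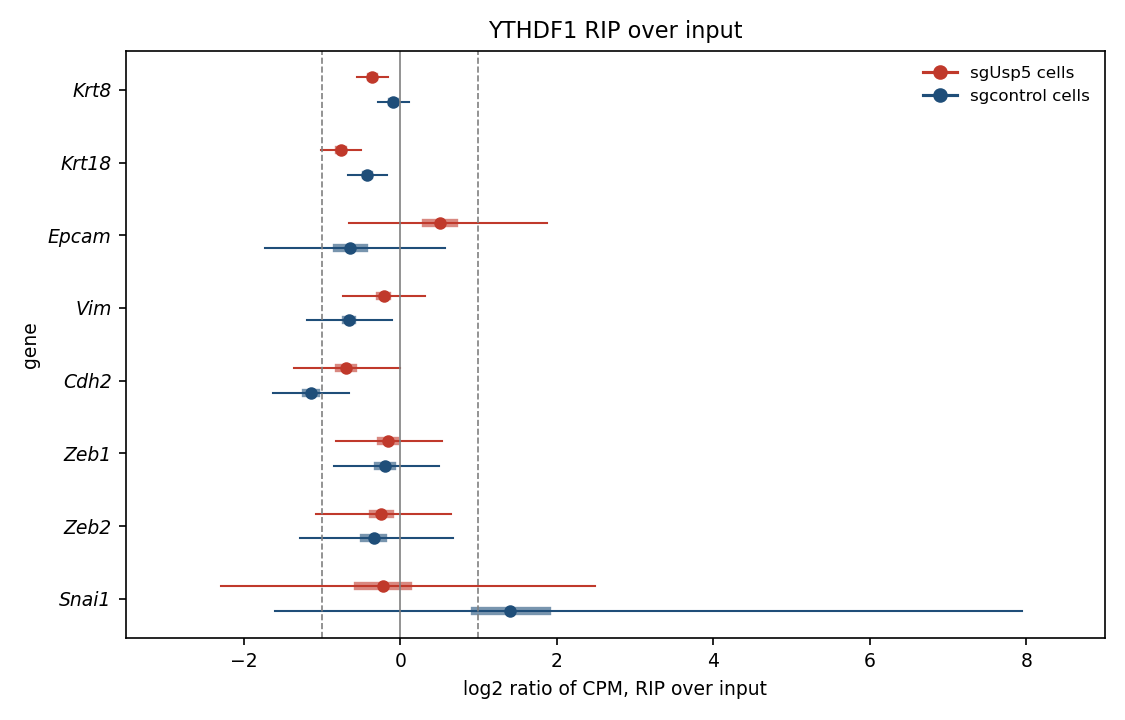
Log2 ratio of CPM, RIP over input, for the 8 expressed members in sgUsp5 cells (upper of each pair) and sgcontrol cells (lower). Thick bars are 95% counting intervals, thin bars are intervals widened by the scatter between libraries, and dashed lines mark 2-fold. Krt18 and Cdh2 lie left of 0 in both lines with both intervals, and Snai1 has the widest interval, -1.60 to 7.94 in sgcontrol cells.

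Across the members, 7 of the 8 expressed members had less RIP than input signal in sgUsp5 cells and 7 of 8 in sgcontrol cells, the exceptions being Epcam and Snai1. The median log2 ratio of the members was -0.23 in sgUsp5 cells and -0.38 in sgcontrol cells, where the medians of all genes were 0.02 and 0.03 and 49.0% and 48.7% of genes were below 0. Krt8, Krt18 and Vim are in the class at a mean log2 CPM of 8 or more, whose own medians were -0.14 and -0.21. In the class at 5 to 8, that of Cdh2, Zeb1 and Zeb2, both medians were -0.02. The widened interval lay below 0 for 3 of 8 members in each line. With library totals the number below 0 was 7 of 8 in sgUsp5 cells and 6 of 8 in sgcontrol cells, beside 43.1% and 41.5% of all genes. At least 2-fold differences were found for 0 of 8 members in sgUsp5 cells, where 29.6% of all genes were called, and for 2 of 8 in sgcontrol cells (Snai1 higher, Cdh2 lower), where 33.4% were called. With widened intervals there were 0 in sgUsp5 cells, beside 10.8% of all genes, and 1 in sgcontrol cells, Cdh2, beside 13.6%. The members' share of calls was thus at or below that of all genes, and none of the mesenchymal genes or repressors was called enriched in both lines. Over both lines, 1 of 8 members passed edgeR's test and 2 of 8 with the line as a replicate block, where 21.5% of all genes passed.

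Between the guides, 0 of 8 members were called in RIP, where 9.19% of all genes were called, and 2 of 8 in input (Snai1 higher, Cdh2 lower), where 24.5% were called. The widened intervals gave 0 in RIP, beside 1.36% of all genes, and left Cdh2 in input, beside 1.40%. The ratio of enrichments called Epcam higher and Snai1 lower in sgUsp5 cells, 2 of 8 beside 27.1% of all genes, and neither was left with widened intervals, beside 1.47%. With both fractions fitted together, edgeR's quasi-likelihood test passed 0 of 8 members at an adjusted p under 0.05, as did DESeq2, beside 0.0232% of all genes for edgeR. At an unadjusted p under 0.05 edgeR passed 1 of 8, Cdh2, beside 4.74% of all genes.

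**Figure D3:**
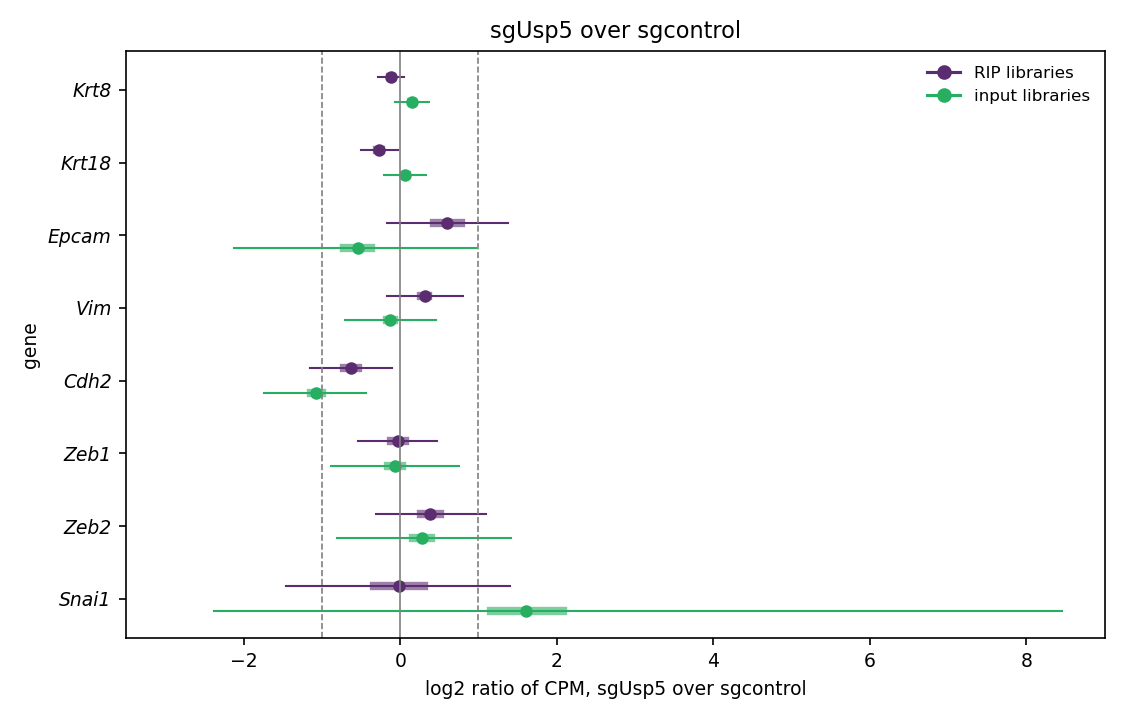
Log2 ratio of CPM, sgUsp5 over sgcontrol, for the 8 expressed members in RIP (upper of each pair) and input libraries (lower), with 95% counting intervals (thick), widened intervals (thin) and dashed lines at 2-fold. Cdh2 lies left of 0 in both fractions, at -0.62 and -1.07, and Epcam has opposite signs, 0.60 in RIP and -0.54 in input.

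**Figure D4:**
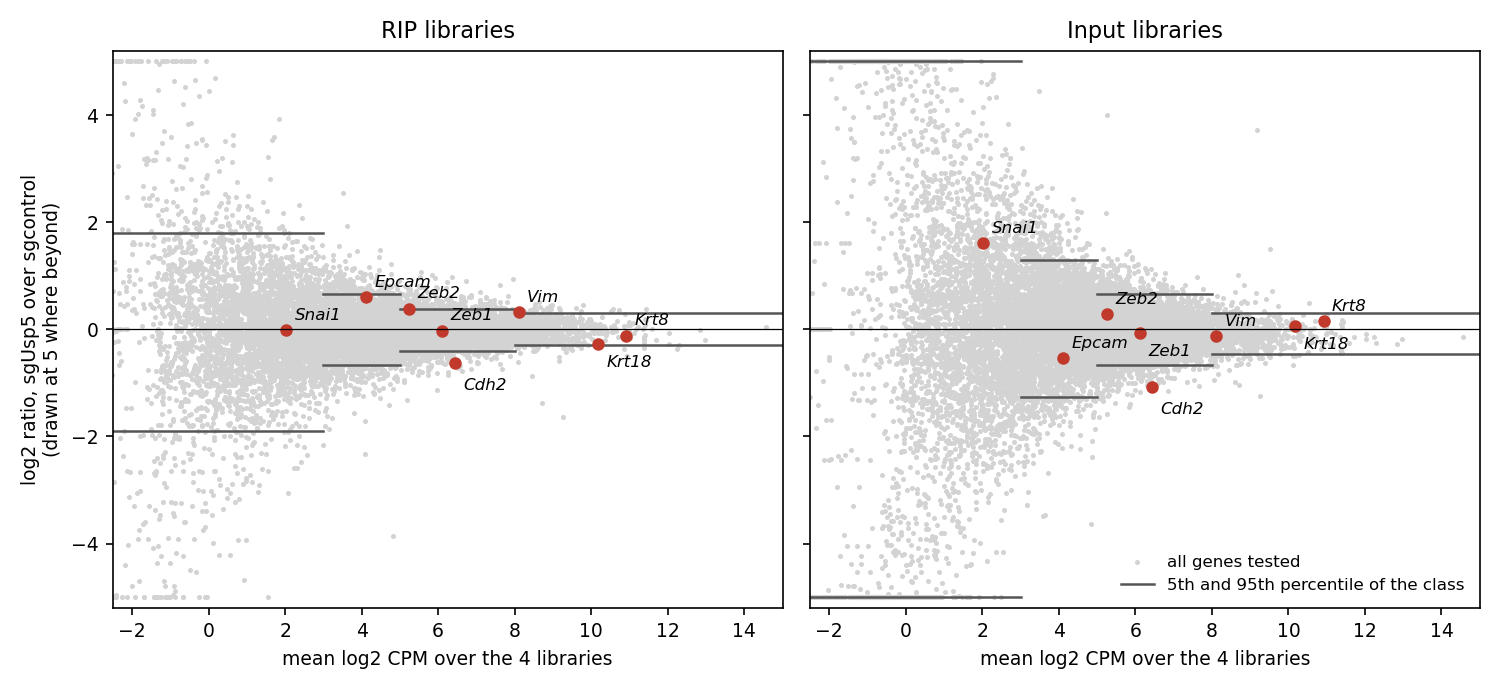
Log2 ratio of sgUsp5 over sgcontrol against mean log2 CPM for the 12920 genes tested (grey), in RIP (left) and input libraries (right), with the members in red and lines at the 5th and 95th percentile of 4 classes of abundance. Values beyond 5 in either direction are drawn at 5. Cdh2 lies below the lower line of its class in both panels, and Snai1 lies inside the lines of its class.

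The place of each member among genes of its own abundance was read from these distributions. In RIP the 5th and 95th percentiles of the class at 5 to 8 were -0.40 and 0.38, so that Zeb2 at 0.39 lay just outside and Zeb1 inside, and in input they were -0.67 and 0.66, with both inside. In the class at 8 or more the percentiles were -0.29 and 0.30 in RIP and -0.46 and 0.31 in input. Vim at 0.32 in RIP lay just outside them, and Krt8 and Krt18 in both fractions and Vim in input lay inside. Epcam lay inside those of its class, -0.66 and 0.66 in RIP and -1.26 and 1.30 in input. For Snai1 the class percentiles in input were -6.89 and 6.87.

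Likeness of pattern was measured as the Euclidean distance between the log2 CPM of 2 genes over the 4 libraries, each centred on its mean. Among members the closest pair was Krt8 and Zeb1 (0.17) and the farthest Cdh2 and Snai1 (2.46), which were opposite in the sgcontrol input. Krt8 and Krt18 were 0.39 apart. Of the 3 genes nearest to each expressed member, among 80 to 3669 genes within 1 log2 unit of its abundance, 0 were other members. That window held no other member for Epcam, Vim and Snai1 and kept Krt8 and Zeb1 apart. The 0 thus does not show whether members are alike. The nearest to Cdh2 was ENSMUSG00000054034 (0.21) and the nearest to Snai1 was ENSMUSG00000041911 (0.07), which are not paired with names here.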

How the data were processed

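RNA from 4 Hepa 1-6 libraries, 1 per group, was analysed from 1 table of raw read counts per gene, which the authors deposited. The tools listed in the submitters' processing notes are featureCounts 1.6.3 and HISAT2 2.1.0, and the build is mm10. For annotation release, strand and duplicate handling the sources used here give nothing. Columns were matched to samples by the short names in the labels, and 0 were left over. The list of members gives their symbols, and the RefSeq gene table paired 0 Ensembl IDs, so the 10 other gene lists chosen (junction, mesenchymal, TGF-beta and cell type markers) were not analysed here.

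TMM factors (0.926 to 1.06), edgeR 4.0.16 and DESeq2 1.42.0 in R 4.3.3 were used. The minimum mean was 1 CPM. Log2 ratios had 0.5 counts added. Counting intervals were exact binomial (Clopper-Pearson), and for the ratio of enrichments came from reciprocal counts. Widened intervals divided counts by the median squared deviation over the binomial variance in 4 abundance classes. This widening was added after seeing the data, and members and lists were chosen with earlier results of these data known. RIP and input of a line were paired by their lysate. Their deviations correlated across genes at r = 0.07 over all genes and 0.27 at a log2 CPM of 8 or more. All 10 members were named, and the 3 most similar genes per member were taken by rule. The code was tested on simulated data.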

Additional observations from a re-analysis of the deposited data

Results flagged for a closer look

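Several members moved in opposite directions in the 2 lines or fractions, with each counting interval excluding no difference. These differences were not tested, since each group held 1 library. RIP over input for Epcam had a log2 ratio of 0.51 in sgUsp5 cells and -0.64 in sgcontrol cells. For sgUsp5 over sgcontrol, Epcam had 0.60 in RIP and -0.54 in input, Krt8 had -0.12 in RIP and 0.15 in input, Krt18 had -0.27 in RIP and 0.063 in input, and Vim had 0.32 in RIP and -0.13 in input. No widened interval of a ratio of enrichments among the 8 expressed members excluded no difference.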

How the results depend on the processing

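Of 489 values of the expressed members under alternatives, 481 kept their direction. Those that turned were Krt8 in RIP over input of sgcontrol cells (0.10), Zeb1 in input between guides (0.00076) and Zeb1 in the ratio of enrichments (-0.017) with library totals, Snai1 in RIP between guides with DESeq2 size factors (0.00061), and, for RIP over input over both lines, Epcam with library totals (0.10), without sgcontrol RIP (0.21) and without sgcontrol input (0.24), and Snai1 without sgcontrol input (-0.21). Leaving out 1 library gave -0.39 to 0.24 for Epcam and -0.21 to 1.40 for Snai1. The cause was not tested.

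The number of members called moved as follows. RIP over input in sgcontrol cells (2) fell to 1 with library totals, a minimum of 5 CPM (which drops Snai1) and both widened intervals. Over all genes these settings called 4454 of 12920, 2594 of 9923, and 1830 and 1761 of 12920. In input between guides (2) the number of members was 1 with the 5 CPM minimum and both widened intervals, beside 1288 of 9923 genes, and 225 and 181 of 12920. The ratio of enrichments (2) had 1 with the 5 CPM minimum, beside 1527 of 9923 genes. It had 0 with both widened intervals, beside 256 and 190 of 12920 genes. With 10 reads in all, Cdh1 entered and was counted as called. This gave 1 in place of 0 for RIP over input in sgUsp5 cells, 3 in place of 2 in sgcontrol cells, and 1 in place of 0 for RIP between guides. Over all genes 6990, 7478 and 4179 of 18511 were called in these comparisons. Cdh1 passes the minimum of 10 reads through its RIP reads alone (27 in sgcontrol RIP and 6 in sgUsp5 RIP). Without the sgcontrol RIP reads it would not pass. Its calls for RIP over input and between guides in RIP thus rest on the filter and support nothing. For RIP over input over both lines (1), the cell line as a replicate block gave 2, beside 2782 of 12920 genes. DESeq2 gave 3 with and without that block, beside 2813 and 3221 of 12920 genes. Library totals gave 0, beside 2339 of 12920 genes, and the 5 CPM minimum gave 2, beside 2865 of 9923. The pairing by lysate changed the call of Cdh2 and of no other member in edgeR.

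The number of genes compared was 18511 with 10 reads in all, 9923 with the 5 CPM minimum and 12920 otherwise, so the counts below are not rates. Calls in either direction ranged from 1391 to 6990 (main 3829) for RIP over input in sgUsp5 cells and 1761 to 7478 (4319) in sgcontrol cells. Between guides they ranged from 154 to 4179 (1187) in RIP and 181 to 5617 (3165) in input, and for the ratio of enrichments from 190 to 5048 (3495). With all libraries kept they ranged from 1961 to 3221 (2235) for RIP over input over both lines and 0 to 22 (3) between guides over both fractions. The lowest came from widened intervals, from no fraction term and, for RIP over input over both lines, from 10 reads in all. The highest came from 10 reads in all and, for the tests over both lines or both fractions, from DESeq2. Library totals raised the share of calls that were higher in RIP from 55.0% to 66.4% in sgcontrol cells and from 45.6% to 62.4% over both lines. Depth limits Snai1, Cdh1 and Snai2: a count of 0 allows up to 3 counts.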
